A study of Arabidopsis thaliana with 20 samples.

Results

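The 10 genes described here are the plasma membrane intrinsic proteins (PIPs) of the *Arabidopsis* leaf named by their identifiers in the deposited count table, 10 of its 37336 genes. They are PIP1;1 (AT3G61430), PIP1;2 (AT2G45960), PIP1;3 (AT1G01620), PIP1;4 (AT4G00430), PIP1;5 (AT4G23400), PIP2;1 (AT3G53420), PIP2;2 (AT2G37170), PIP2;6 (AT2G39010), PIP2;7 (AT4G35100) and PIP2;8 (AT2G16850). From here on these names are written with a hyphen, as UniProt does (PIP2-1 for PIP2;1). The other 3 PIP genes of the table, PIP2;3, PIP2;4 and PIP2;5, are not members and are given for comparison only.

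RNA was sequenced from leaves of wild-type Columbia-0 plants that were 6 weeks old, in 20 samples that fall into 4 groups of 5. One group was not infiltrated and one was infiltrated with water. The SWNT group received single-walled carbon nanotubes that carried single-stranded RNA against GFP, and the PEI-SWNT group received nanotubes coated with polyethylenimine (PEI, a positively charged polymer) that carried a GFP plasmid. Both nanotubes were given at 50 ng/µL, about 40 µL filled a leaf, leaves were taken 2 days later, and each sample pooled 4 leaves from different plants. The nanotube groups differ in cargo as well as in surface, so the effect of the polymer and that of the plasmid cannot be told apart. These are bulk samples, in which fewer cells of a type and less RNA per cell cannot be told apart either.

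Aquaporins are membrane channels that let water, and in some cases carbon dioxide or hydrogen peroxide, cross a lipid bilayer. The PIPs sit in the plasma membrane and form tetramers in which each subunit has its own pore, and they carry much of the water that moves from cell to cell in leaves. PIP2 proteins are efficient water channels on their own, while PIP1 proteins reach the plasma membrane best in mixed tetramers with a PIP2. Their activity is also set after transcription, by phosphorylation, by traffic to the membrane and by degradation, none of which RNA-seq measures.

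The pore of each subunit is framed by 2 short loops that meet in its middle, each with an asparagine-proline-alanine (NPA) box. Both boxes were found in the coding sequence of all 10 members. The first box and the bases around it are shown with the NPA codons in capitals (coding strand, TAIR10.1 RefSeq genome). The genes shown are the most abundant member, the members that fell most with PEI-SWNTs against water, and PIP2-2 with its neighbour PIP2;3 (AT2G37180).
PIP1-2: ggacacatcAACCCAGCGgttacgttc
PIP1-5: ggacatattAATCCGGCGgtgactttt
PIP2-6: ggacacatcAATCCCGCGgtgacgttt
PIP2-2: ggtcacataAACCCTGCGgtgacgttt
PIP2-3: ggtcacataAACCCTGCGgtgacgttt
PIP2-2 and PIP2-3 have the same letters throughout this stretch. Over the whole coding sequence they were 94.8% identical, the closest of all pairs among the PIPs, and they lie beside each other on chromosome 2 in opposite directions. PIP2-2 shares 44 windows of 100 bases with PIP2-3, or 4.64% of its windows, and no other member shares any. The next closest pairs were PIP1-1 with PIP1-2, at 87.6%, and PIP2-1 with PIP2-2, at 86.2%, and pairs of a PIP1 with a PIP2 ranged from 70.0% to 75.9%. No exon of a member overlaps an exon of another gene, so the unknown strand setting of the counting does not bear on them, but counts of PIP2-2 may hold reads of PIP2-3 and the reverse.

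The level of a gene is given in RPKM, the reads per kilobase of exon scaled to the library size, with library sizes adjusted by TMM. Total counts ranged from 13387714 to 29737496 per sample, with a median of 25701932 in non-infiltrated leaves and 17806729 with PEI-SWNTs. Of the 10 members, 9 passed the filter of an average RPKM of at least 1 and were tested, and PIP2-8 did not. A log2 fold change is given with its standard error (SE), and a gene is called where edgeR's quasi-likelihood test gave an adjusted p under 0.05 over all 16288 genes tested. The members' own spread between the 5 samples of a group is given as a standard deviation (SD, n = 5).

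Which PIPs were called lower with PEI-SWNTs depended on the group compared. PIP1-4, PIP1-5, PIP2-1, PIP2-6 and PIP2-7 were called lower in all 3 comparisons. Against water, 6 of the 9 tested members were lower with PEI-SWNTs and none was higher, where 24.3% of all tested genes were called lower and 27.7% higher. The 6 were PIP1-3, PIP1-4, PIP1-5, PIP2-1, PIP2-6 and PIP2-7, and from the mean level with water PIP1-3 fell by 26.8%, the least, and PIP1-5 fell by 49.2%, the most. Against SWNTs the same 6 and PIP1-2 were lower, 7 of 9, where 19% of all genes were called lower and 22.3% higher. All 9 had a log2 fold change below 0 there, from -0.86 to -0.16 with a median of -0.53. Against non-infiltrated leaves, 5 members were lower (PIP1-4, PIP1-5, PIP2-1, PIP2-6 and PIP2-7) and PIP2-2 was higher, where 31.2% of all genes were called lower and 30.4% higher. These 3 comparisons share the PEI-SWNT samples.

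With water and with SWNTs, some of the tested members were called higher than in non-infiltrated leaves and none lower. Water raised 3 of the 9, PIP1-2, PIP1-3 and PIP2-2, where 16.4% of all genes were called higher and 16.4% lower. SWNTs raised 5 of the 9, PIP1-1, PIP1-2, PIP1-3, PIP2-1 and PIP2-2, where 21.6% were called higher and 20.3% lower. The counts of 0 in these comparisons, in either direction, were also 0 at an unadjusted p under 0.05 and by DESeq2. Between SWNTs and water, PIP2-2 alone was called, higher with SWNTs, where 7.52% of all genes were called higher and 6.14% lower, and this call was lost without SWNTs replicate 1 (adjusted p = 0.077).

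None of the 9 tested members reached a 2-fold change in any of the 6 comparisons by edgeR with all 20 samples and the filter above, at an adjusted or an unadjusted p under 0.05. The largest fall was that of PIP1-5 with PEI-SWNTs against water, at -0.98 on the log2 scale, and the largest rise that of PIP2-2 with SWNTs against non-infiltrated leaves, at 0.96. With 1 sample left out these passed 2-fold in some fits, reaching -1.03 for PIP1-5 and 1.04 for PIP2-2. Among all tested genes the share that did was 4.51% for water and 6.91% for SWNTs against non-infiltrated leaves, and 14.8% for PEI-SWNTs. It was 1.52% for SWNTs against water, 9.61% for PEI-SWNTs against water and 6.39% for PEI-SWNTs against SWNTs. The median log2 fold change of the 9 tested members was 0.20 for water, 0.26 for SWNTs and -0.26 for PEI-SWNTs against non-infiltrated leaves, and -0.47 for PEI-SWNTs against water. The medians over all tested genes were 0, -0.01, -0.02 and 0 in the same order.

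**Figure D1:**
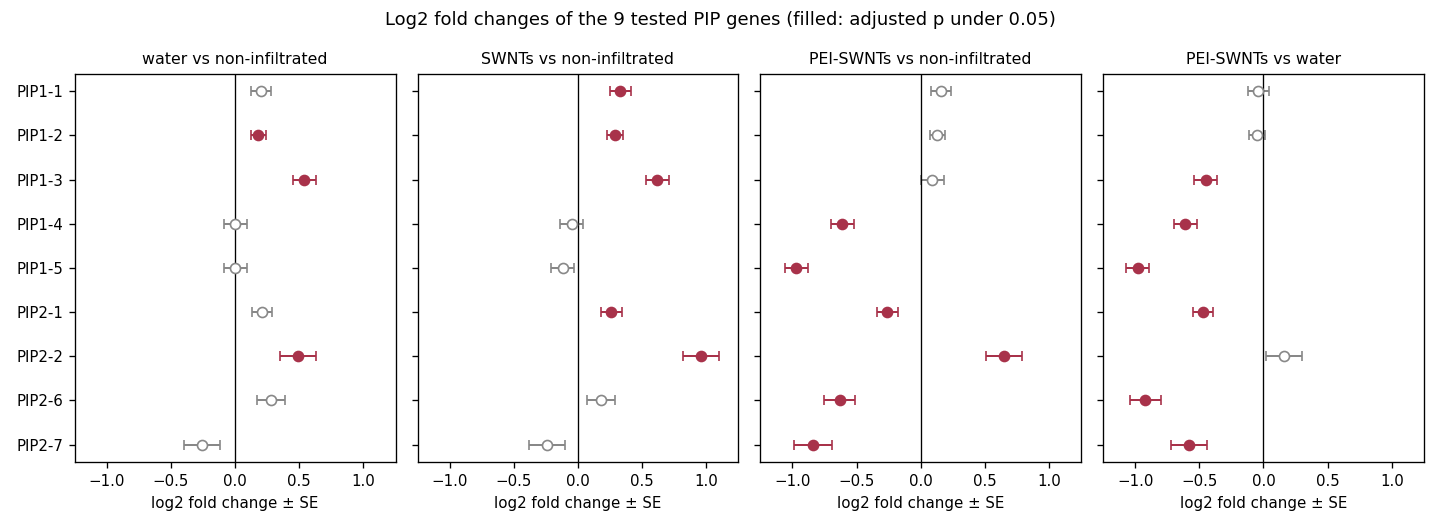
Log2 fold changes (x axis, with bars of 1 SE) of the 9 tested PIP genes in 4 comparisons, filled where the adjusted p was under 0.05. Every filled point in the water and SWNT panels lies to the right of 0, and every filled point for PEI-SWNTs against water lies to the left, between -0.98 and -0.45.

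The members span a wide range of levels, and the top 2 were the same in every group. PIP1-2 was the most abundant, at 914.4 ± 72.1 RPKM in non-infiltrated leaves, where it ranked 75 of 16288 genes. PIP2-1 followed at 762.8 ± 92.0 RPKM, and its range overlapped that of PIP1-2 in non-infiltrated and water-infiltrated leaves but not in either nanotube group. PIP1-5 and PIP2-7 came next in untreated leaves, at 451.2 ± 63.9 and 435.1 ± 92.7 RPKM, with overlapping ranges. PIP1-1, PIP2-6, PIP1-3 and PIP1-4 followed from 266.4 down to 156.9 RPKM, each overlapping the next. PIP2-2 was below them at 128.5 ± 3.84 RPKM, and PIP2-8 was last at 0.584 ± 0.229 RPKM.

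**Figure D2:**
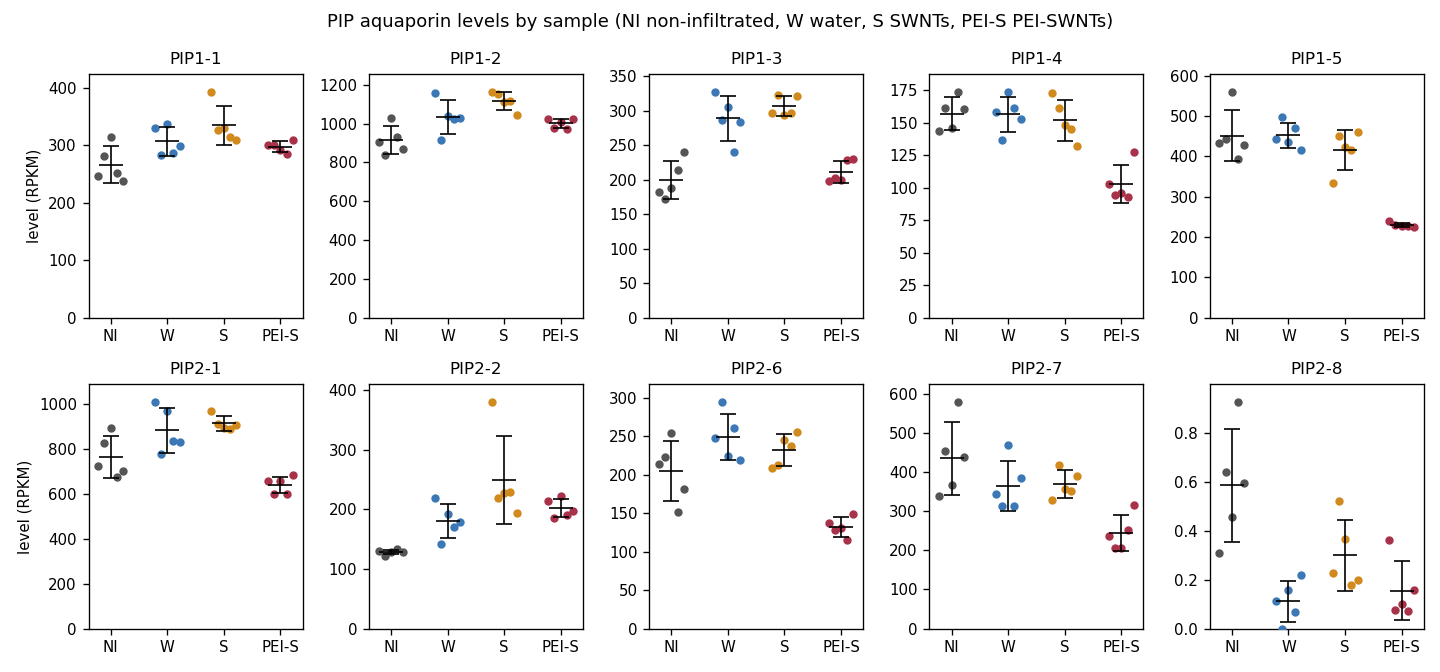
Level of each PIP gene (RPKM, y axis from 0) in every sample of the 4 groups, with points for samples and bars for the mean ± SD of 5 samples. PIP1-5, PIP1-4 and PIP2-6 with PEI-SWNTs lie below every sample of the other groups, and PIP2-2 lies above its non-infiltrated samples in all 3 infiltrated groups.

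Among the PIP1 genes, PIP1-5 (chr4:12220641-12222468, plus strand) changed most. Its levels in replicates 1 to 5 were 433, 442, 560.4, 392 and 428 RPKM in non-infiltrated leaves and 444, 497, 435, 469.5 and 417 RPKM with water. With SWNTs they were 334, 450.0, 423, 415 and 460.0 RPKM, and with PEI-SWNTs 239, 231, 226, 229 and 224 RPKM. Every PEI-SWNT sample lay below every other sample, and the samples with PEI-SWNTs were close together, with an SD of 5.91 RPKM. The log2 fold change with PEI-SWNTs was -0.97 ± 0.09 against non-infiltrated leaves (adjusted p = 1.9e-08), -0.98 ± 0.09 against water (adjusted p = 3.8e-08) and -0.86 ± 0.09 against SWNTs (adjusted p = 3.9e-07). Water and SWNTs gave 0 ± 0.09 (adjusted p = 0.98) and -0.12 ± 0.09 (adjusted p = 0.31) against non-infiltrated leaves.

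PIP1-4 (chr4:185285-187680, minus strand) carries carbon dioxide and, in leaves under attack by a pathogen, hydrogen peroxide into the cell. Its levels were 144, 161.5, 146, 174 and 160.2 RPKM in non-infiltrated leaves, 158.5, 137, 174, 161 and 153 RPKM with water, and 173, 161, 148, 145 and 132 RPKM with SWNTs. With PEI-SWNTs they were 103, 94.5, 95.7, 92.8 and 128 RPKM. Even the highest PEI-SWNT sample, replicate 5, was below the lowest sample of the other groups. PEI-SWNTs gave a log2 fold change of -0.61 ± 0.09 against non-infiltrated leaves (adjusted p = 1e-05), and it was -0.61 against water and -0.56 against SWNTs. PIP1-4 and PIP1-5 lie on the same chromosome but far apart.

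PIP1-3 (chr1:225665-227543, minus strand) went up with infiltration and was near the untreated level with PEI-SWNTs. Its levels were 182, 172.5, 187.5, 214 and 239.5 RPKM in non-infiltrated leaves and 327.5, 287, 306, 240.1 and 284 RPKM with water. They were 297, 322.5, 294, 296 and 322 RPKM with SWNTs, and 198, 202, 199.6, 228 and 230.3 RPKM with PEI-SWNTs. All water and SWNT samples lay above all non-infiltrated and PEI-SWNT samples, although water replicate 4 was above the highest non-infiltrated sample by less than 1 RPKM. Water gave a log2 fold change of 0.54 ± 0.09 (adjusted p = 2e-04) and SWNTs one of 0.62 ± 0.09 (adjusted p = 2e-05). With PEI-SWNTs it was 0.09 ± 0.09 (adjusted p = 0.40) against non-infiltrated leaves and -0.45 ± 0.09 against water (adjusted p = 3e-04).

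PIP1-2 (chr2:18910081-18911982, plus strand), which contributes to the water and carbon dioxide permeability of leaf cells, changed least for its abundance. Its levels ranged from 841 to 1027 RPKM in non-infiltrated leaves, from 917.5 to 1159 RPKM with water, from 1043 to 1164 RPKM with SWNTs and from 974 to 1024 RPKM with PEI-SWNTs. Each SWNT sample was above each non-infiltrated one, at a log2 fold change of 0.29 ± 0.06 (adjusted p = 0.0011). The rise with water, 0.18 ± 0.06 (adjusted p = 0.035), lost its call in 6 of the 20 fits that left out 1 sample, with an adjusted p of up to 0.11 without water replicate 1. The fall with PEI-SWNTs against SWNTs, -0.16 ± 0.06 (adjusted p = 0.048), lost it in 7 of those 20 fits, with an adjusted p of up to 0.072 without SWNTs replicate 3.

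PIP1-1 (chr3:22733243-22735394, plus strand), the closest relative of PIP1-2, was called in 1 comparison. Its levels ranged from 238 to 315 RPKM in non-infiltrated leaves, from 282 to 336 RPKM with water, from 309 to 393 RPKM with SWNTs and from 284 to 309 RPKM with PEI-SWNTs. SWNTs gave a log2 fold change of 0.33 ± 0.08 (adjusted p = 0.0028), with ranges that overlapped between 309 and 315 RPKM. Water gave 0.20 ± 0.08 (adjusted p = 0.055) and PEI-SWNTs 0.16 ± 0.08 (adjusted p = 0.091), both against non-infiltrated leaves.

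Among the PIP2 genes, PIP2-6 (chr2:16291280-16294101, plus strand), one of the isoforms that set the hydraulic conductance of the rosette, fell most against water. Its levels were 213, 223, 254, 151 and 181.5 RPKM in non-infiltrated leaves and 248, 294, 224, 260.4 and 219 RPKM with water. They were 209, 213, 245, 237 and 255 RPKM with SWNTs, and 137, 128.5, 130.0, 114.5 and 149 RPKM with PEI-SWNTs. The PEI-SWNT samples lay below all others, but the highest of them came within 2 RPKM of non-infiltrated replicate 4. In log2 terms PEI-SWNTs gave -0.92 ± 0.12 against water (adjusted p = 2.2e-06), -0.81 ± 0.12 against SWNTs (adjusted p = 1.6e-05) and -0.63 ± 0.12 against non-infiltrated leaves (adjusted p = 9.4e-05).

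PIP2-1 (chr3:19803473-19805730, minus strand) is a well studied leaf isoform, a channel for water and hydrogen peroxide that also takes part in the closing of stomata. Its levels were 724, 827, 890.3, 672 and 701 RPKM in non-infiltrated leaves and 1006, 775, 967.5, 833 and 830.3 RPKM with water. They were 969.7, 911, 894, 886 and 905 RPKM with SWNTs, and 657.5, 599, 654, 600.0 and 682 RPKM with PEI-SWNTs. The PEI-SWNT samples lay below all water and SWNT samples, and their range overlapped that of non-infiltrated leaves through its lowest sample, replicate 4. PEI-SWNTs gave log2 fold changes of -0.47 ± 0.08 against water (adjusted p = 9.1e-05), -0.52 ± 0.08 against SWNTs (adjusted p = 4.9e-05) and -0.26 ± 0.08 against non-infiltrated leaves (adjusted p = 0.010). SWNTs gave 0.26 ± 0.08 (adjusted p = 0.015) and water 0.21 ± 0.08 (adjusted p = 0.053) against non-infiltrated leaves, so PIP2-1 was called higher with one nanotube and lower with the other.

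PIP2-7 (chr4:16708361-16710407, plus strand), which is carried to the plasma membrane with the help of syntaxins, varied most of the tested members between untreated samples. Its levels were 339, 452, 367, 577.5 and 439 RPKM in non-infiltrated leaves and 344, 312, 468, 314 and 383 RPKM with water. They were 329, 419, 357, 351 and 389.8 RPKM with SWNTs, and 236, 204.5, 206, 252 and 317 RPKM with PEI-SWNTs. PEI-SWNTs replicate 5 was above the 2 lowest water samples, while the other 4 lay below every sample of the other groups. The log2 fold change with PEI-SWNTs was -0.84 ± 0.15 against non-infiltrated leaves (adjusted p = 5.5e-05), -0.58 ± 0.14 against water (adjusted p = 0.0023) and -0.60 ± 0.14 against SWNTs (adjusted p = 0.0025). Water gave -0.26 ± 0.14 (adjusted p = 0.19) and SWNTs -0.24 ± 0.14 (adjusted p = 0.20), which makes PIP2-7 one of the members with a fold change below 0 after every infiltration, though called only with PEI-SWNTs.

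PIP2-2 (chr2:15613368-15615022, minus strand), a water channel best known from roots, was the one member called higher in all 3 infiltrated groups. Its levels were 130.5, 122.5, 128, 133 and 129 RPKM in non-infiltrated leaves, the tightest of the 9 tested members in untreated leaves relative to its mean. They were 219.8, 142, 192, 169.7 and 179.6 RPKM with water, 379.5, 219, 227.5, 228.5 and 194 RPKM with SWNTs, and 214, 186, 223, 191 and 197 RPKM with PEI-SWNTs. Every infiltrated sample was above every non-infiltrated one, and SWNTs replicate 1 stood far above the rest of its group. Measured from non-infiltrated leaves, its log2 fold change was 0.49 ± 0.14 with water (adjusted p = 0.011), 0.96 ± 0.14 with SWNTs (adjusted p = 2.7e-05) and 0.65 ± 0.14 with PEI-SWNTs (adjusted p = 0.00045). SWNTs gave 0.47 ± 0.14 against water (adjusted p = 0.030), and 0.26 (adjusted p = 0.077) without SWNTs replicate 1. The call against water was also lost without water replicate 2, 4 or 5, with an adjusted p of up to 0.082.

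PIP2-3, the near copy of PIP2-2 and no member, had the same high sample. Its levels were 42.0, 55.5, 43.7, 44.1 and 35.0 RPKM in non-infiltrated leaves, 79.8, 43.0, 80.7, 41.4 and 67.9 RPKM with water, 135, 72.3, 67.7, 67.2 and 56.0 RPKM with SWNTs, and 52.1, 53.0, 54.7, 44.4 and 72.5 RPKM with PEI-SWNTs. It was called higher with SWNTs against non-infiltrated leaves, at 0.85 ± 0.23 (adjusted p = 0.0054). With PEI-SWNTs it gave 0.33 ± 0.23 (adjusted p = 0.22), where PIP2-2 was called. How many reads moved between these 2 genes in counting was not tested.

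PIP2-8 (chr2:7301334-7303509, plus strand) was near the limit of detection, and its counts are given in place of levels. The 5 non-infiltrated samples held 11, 24, 18, 33 and 26 counts, those with water 4, 0, 4, 2 and 9, those with SWNTs 6, 14, 9, 4 and 7, and those with PEI-SWNTs 9, 2, 2, 2 and 5. All samples with water lay below all non-infiltrated samples in RPKM, at 0 to 0.219 against 0.309 to 0.923. The gene failed the filter and has no place in the counts of called members. Under edgeR's filterByExpr, which kept it, its difference from non-infiltrated leaves on the log2 scale was -2.28 with water (adjusted p = 0.0018), -0.95 with SWNTs (adjusted p = 0.089) and -1.87 with PEI-SWNTs (adjusted p = 0.0026).

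Summed over the 10 members, the PIP transcript pool was smallest with PEI-SWNTs. It was 3519 ± 216 RPKM in non-infiltrated leaves, 3914 ± 258 RPKM with water, 4090 ± 114 RPKM with SWNTs and 3058 ± 132 RPKM with PEI-SWNTs. The highest PEI-SWNT sample, at 3260 RPKM, was below the lowest non-infiltrated sample, at 3317 RPKM, and all SWNT samples were above all non-infiltrated ones. Members held 0.566% of all counts in non-infiltrated leaves, 0.620% with water, 0.647% with SWNTs and 0.479% with PEI-SWNTs. These sums are descriptions and were not tested.

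The makeup of the pool shifted towards PIP1-2 and PIP2-2. The level of PIP1-2 itself was not called higher with PEI-SWNTs in the main fit. Its log2 fold change was 0.13 against non-infiltrated leaves, -0.05 against water and -0.16 against SWNTs. The share of PIP1-2 was 26.0% ± 1.33 in non-infiltrated leaves, 26.4% ± 1.17 with water, 27.3% ± 0.746 with SWNTs and 32.8% ± 0.795 with PEI-SWNTs, and its lowest value with PEI-SWNTs, 31.4%, was above the highest in the other groups, 28.0%. That of PIP1-5 was 12.8% ± 1.16 in non-infiltrated leaves, 11.6% with water, 10.2% with SWNTs and 7.53% ± 0.403 with PEI-SWNTs. In the same order that of PIP2-7 was 12.4% ± 2.77, 9.3%, 9.03% and 7.92% ± 1.2. PIP2-2 went the other way, at 3.66% ± 0.259, 4.59%, 6.08% and 6.62% ± 0.502. PIP1-1 likewise held 9.73% ± 0.327 with PEI-SWNTs against 7.55% ± 0.483 in non-infiltrated leaves, while its level was not called different between those groups. The share of all PIP1 genes together was 56.5% ± 1.58, 57.2% ± 1.16, 56.9% ± 0.853 and 60.3% ± 1.18 in non-infiltrated, water, SWNT and PEI-SWNT leaves.

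**Figure D3:**
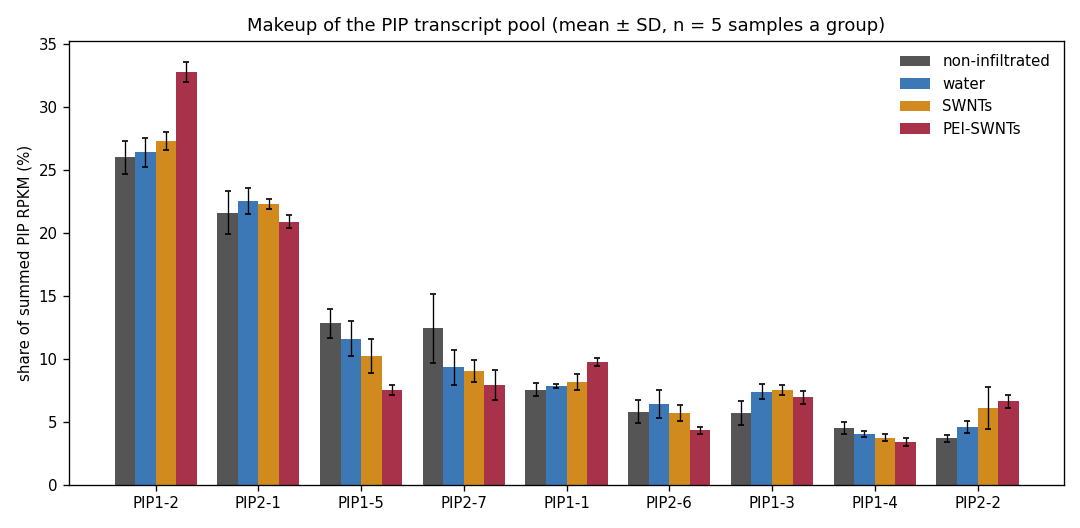
Share of each PIP gene in the summed RPKM of the 10 members (percent, y axis from 0), as bars for the mean of 5 samples in each of the 4 groups with error bars of 1 SD. PIP1-2 stands out with PEI-SWNTs at 32.8%, while PIP1-5 drops to 7.53% (PIP2-8, at 0.0166% or less, is not drawn).

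The sequence before each gene start was searched for short motifs. In the 250 bases upstream of each gene start in the RefSeq annotation, 5 motifs were searched on both strands. They were TTGAC (the core of the W-box, which WRKY factors bind), ACGTG (the core of the abscisic acid response element), CACGTG (the G-box, which holds ACGTG within it), CCGAC (the core of the dehydration response element) and GATAA (the I-box of light-regulated genes). TTGAC was present before 5 of the 10 members, near the share of 43.9% among 37897 promoters of the same length. These were 5 of the 6 that were called lower against water, and none of the 4 others held it. Outside the members the split did not hold, since PIP2-5, called higher with PEI-SWNTs against water, had 2 matches. PIP2-3 and PIP2-4 had no match. Against SWNTs TTGAC was before 5 of the 7 called lower and none of the other 3. Against non-infiltrated leaves it was before 4 of the 5 called lower and 1 of the other 5. PIP2-8, which had no match, is counted among the others in each comparison although it was not tested. Under filterByExpr it was called lower with PEI-SWNTs against non-infiltrated leaves (-1.87 on the log2 scale, adjusted p = 0.0026). It was not called there against water (0.41, adjusted p = 0.6) or SWNTs (-0.92, adjusted p = 0.19). ACGTG and CACGTG were before no member, against 20.8% and 5.39% of promoters. CCGAC was before 1, against 12%, and GATAA before 4, against 54.3%. Of the 6 called lower against water, GATAA was before 2 and CCGAC before 1, and of the 4 others GATAA was before 2 and CCGAC before none. With 10 genes the split is a description, it was seen after the calls were known, and a match is not a site where a factor was shown to bind.

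The windows of the 6 members called lower with PEI-SWNTs against water, and of PIP2-2, are shown with TTGAC, or its reverse complement GTCAA, in capitals. Each is read on the strand of its gene, from the TAIR10.1 RefSeq genome.
PIP1-3, chr1:227544-227793, minus strand: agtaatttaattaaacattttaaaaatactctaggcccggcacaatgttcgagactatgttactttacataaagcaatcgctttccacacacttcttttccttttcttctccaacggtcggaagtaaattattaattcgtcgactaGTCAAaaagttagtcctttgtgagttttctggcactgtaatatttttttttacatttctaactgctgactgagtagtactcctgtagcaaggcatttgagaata
PIP1-4, chr4:187681-187930, minus strand: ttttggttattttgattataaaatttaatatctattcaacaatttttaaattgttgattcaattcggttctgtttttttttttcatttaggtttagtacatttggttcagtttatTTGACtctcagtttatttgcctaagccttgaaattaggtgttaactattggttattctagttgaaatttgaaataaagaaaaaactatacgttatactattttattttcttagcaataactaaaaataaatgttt
PIP1-5, chr4:12220391-12220640, plus strand: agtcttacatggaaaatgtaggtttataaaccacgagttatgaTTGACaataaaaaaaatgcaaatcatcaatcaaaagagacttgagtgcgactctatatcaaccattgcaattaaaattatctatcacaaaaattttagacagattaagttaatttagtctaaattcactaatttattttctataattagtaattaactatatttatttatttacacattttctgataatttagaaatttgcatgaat
PIP2-1, chr3:19805731-19805980, minus strand: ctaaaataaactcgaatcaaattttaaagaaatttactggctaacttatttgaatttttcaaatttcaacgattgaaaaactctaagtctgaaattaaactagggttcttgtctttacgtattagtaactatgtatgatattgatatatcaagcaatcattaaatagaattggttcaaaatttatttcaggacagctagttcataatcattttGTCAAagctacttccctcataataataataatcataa
PIP2-6, chr2:16291030-16291279, plus strand: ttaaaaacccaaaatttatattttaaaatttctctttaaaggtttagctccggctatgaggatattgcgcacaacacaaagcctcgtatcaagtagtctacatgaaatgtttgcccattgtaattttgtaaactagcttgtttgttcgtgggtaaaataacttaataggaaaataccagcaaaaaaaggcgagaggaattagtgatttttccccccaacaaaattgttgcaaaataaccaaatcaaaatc
PIP2-7, chr4:16708111-16708360, plus strand: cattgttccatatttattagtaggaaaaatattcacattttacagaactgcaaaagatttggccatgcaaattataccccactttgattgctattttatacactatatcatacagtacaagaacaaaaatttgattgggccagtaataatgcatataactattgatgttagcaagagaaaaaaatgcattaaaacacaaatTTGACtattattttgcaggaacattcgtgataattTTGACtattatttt
PIP2-2, chr2:15615023-15615272, minus strand: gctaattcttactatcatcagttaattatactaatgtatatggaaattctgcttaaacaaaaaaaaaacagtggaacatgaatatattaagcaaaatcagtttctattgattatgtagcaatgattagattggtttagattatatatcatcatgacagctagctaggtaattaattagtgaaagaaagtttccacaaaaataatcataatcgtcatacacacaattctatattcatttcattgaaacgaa
PIP2-7 holds the motif in both of its matches close to the start, inside a repeat of the same letters. PIP2-6, which fell with the others, and PIP2-2, which did not, have no match in this window.

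Transcripts of proteins that act on PIPs were measured as well. Of 9 such genes, all of which were tested, 6 were called higher and 2 lower with PEI-SWNTs against water, where 27.7% of all tested genes were called higher and 24.3% lower. SYP121, a syntaxin of the plasma membrane that in *Arabidopsis* helps to deliver PIP2-7, was 16.1, 15.9, 17.8, 14.1 and 15.5 RPKM in non-infiltrated leaves, 26.6 to 35.4 RPKM with water, 33.0 to 49.6 RPKM with SWNTs and 61.5, 74.2, 66.4, 56.9 and 65.9 RPKM with PEI-SWNTs. All infiltrated samples were above all non-infiltrated ones, and the PEI-SWNT samples were the highest. From non-infiltrated leaves its log2 fold change was 0.90 ± 0.11 with water, 1.34 ± 0.11 with SWNTs and 2.03 ± 0.11 with PEI-SWNTs (adjusted p = 2e-11), while PIP2-7 was called lower with PEI-SWNTs and with no other treatment. The other syntaxin among the 9 genes, SYP61, was called in neither direction with PEI-SWNTs against water. It averaged 15.7 RPKM in non-infiltrated leaves, 16.5 RPKM with water, 15.6 RPKM with SWNTs and 15.1 RPKM with PEI-SWNTs.

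RMA1, a ubiquitin ligase of the endoplasmic reticulum that marks PIP2-1 for degradation, was higher on average after every infiltration. Its levels were 2.01 to 2.87 RPKM in non-infiltrated leaves, 2.81 to 4.3 RPKM with water, 3.38 to 6.47 RPKM with SWNTs and 5.20 to 8.59 RPKM with PEI-SWNTs. The PEI-SWNT range overlapped that of SWNTs but not that of water or of non-infiltrated leaves. A gene on the same strand overlaps 8.63% of its exons. The log2 fold change of RMA1 with PEI-SWNTs against non-infiltrated leaves was 1.40 ± 0.18 (adjusted p = 1.6e-06). UBC32, the ubiquitin-conjugating enzyme that works with it, was called higher against water, at 0.36 ± 0.10 (adjusted p = 0.0047). The kinases did not move one way. BAK1, a co-receptor kinase of immune and brassinosteroid signalling that acts with PIP2-1 in guard cells, gave 0.63 ± 0.06 with PEI-SWNTs against water (adjusted p = 1.6e-07), and QSK1, a receptor-like kinase, gave 0.24 ± 0.09 (adjusted p = 0.032). OST1, the abscisic acid-activated kinase that acts on PIP2-1 in guard cells, gave -0.20 ± 0.06 (adjusted p = 0.0073), and SIRK1, the partner of QSK1, gave -0.49 ± 0.08 (adjusted p = 5e-05). These are transcript levels and say nothing of the activity of the proteins.

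TSPO, an abscisic acid-induced membrane protein that takes PIP2-7 to the vacuole for breakdown, followed another pattern. It was 2.27, 1.85, 2.54, 1.15 and 2.31 RPKM in non-infiltrated leaves, 0.596, 0.719, 0.668, 0.516 and 0.414 RPKM with water and 1.60, 1.65, 1.94, 1.90 and 1.62 RPKM with PEI-SWNTs. With SWNTs it was 3.99, 0.737, 1.21, 0.565 and 0.726 RPKM, so that 1 sample, replicate 1, set the mean. These levels rest on few reads, with 29 to 71 counts a sample in non-infiltrated leaves and 11 to 15 with water. With SWNTs there were 9 to 74 counts and with PEI-SWNTs 27 to 37. The log2 fold change was -1.81 ± 0.42 with water against non-infiltrated leaves (adjusted p = 0.0029) and 1.59 ± 0.43 with PEI-SWNTs against water (adjusted p = 0.0045). SWNTs replicate 1 is also the sample in which PIP1-1, PIP1-2, PIP2-2 and PIP2-3 were highest. For PIP1-2 the margin was small, at 1164 RPKM against 1159 RPKM in water replicate 1.

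The other aquaporins of the leaf give the PIPs a frame. Of 10 tonoplast intrinsic proteins (TIPs), the water channels of the vacuole, 4 were tested, and all 4 were called lower with PEI-SWNTs against SWNTs, where 19% of all tested genes were. Against water 3 of the 4 were lower, where 24.3% of all genes were, and with water against non-infiltrated leaves 3 were higher, where 16.4% were. TIP2;1 averaged 698 RPKM in non-infiltrated leaves. It was 1029, 998, 1181, 923 and 1008 RPKM with water and 377, 317, 278, 355 and 526.5 RPKM with PEI-SWNTs. Against water that is a log2 fold change of -1.47 ± 0.14 (adjusted p = 4.9e-08), which no tested PIP reached. With PEI-SWNTs against non-infiltrated leaves the lowest log2 fold change was -0.91 among the tested TIPs and -0.97 among the tested PIPs. Genes on the opposite strand overlap 14.0% of the exons of TIP2;1, and without a known strand setting their reads could not be kept apart. The summed TIP level was 2498 ± 184.5 RPKM in non-infiltrated leaves, 3292 ± 297.5 RPKM with water, 2826 ± 101 RPKM with SWNTs and 1920 ± 195.5 RPKM with PEI-SWNTs.

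Of the 3 small basic intrinsic proteins (SIPs) of the endoplasmic reticulum, SIP1;2 was lower and the other 2 were higher with PEI-SWNTs against water. SIP1;2 held 70, 88, 69, 69 and 72 counts in non-infiltrated leaves and 13, 7, 8, 13 and 26 with PEI-SWNTs, a log2 fold change of -1.91 ± 0.22 (adjusted p = 3.2e-07). Of 9 NOD26-like intrinsic proteins (NIPs) 2 were tested. NIP6-1, a boric acid channel, was lower with PEI-SWNTs against water, at -0.61 ± 0.13 (adjusted p = 0.00087), and NIP1-2 was higher against non-infiltrated leaves, at 0.38 ± 0.10 (adjusted p = 0.0025). Of the other 3 PIP genes, PIP2;5 (AT3G54820), at 2.59 to 4.15 RPKM on average in the 4 groups, was called higher with PEI-SWNTs against water, at 0.69 ± 0.26 (adjusted p = 0.035), and PIP2;4 (AT5G60660) failed the filter.

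**Figure D4:**
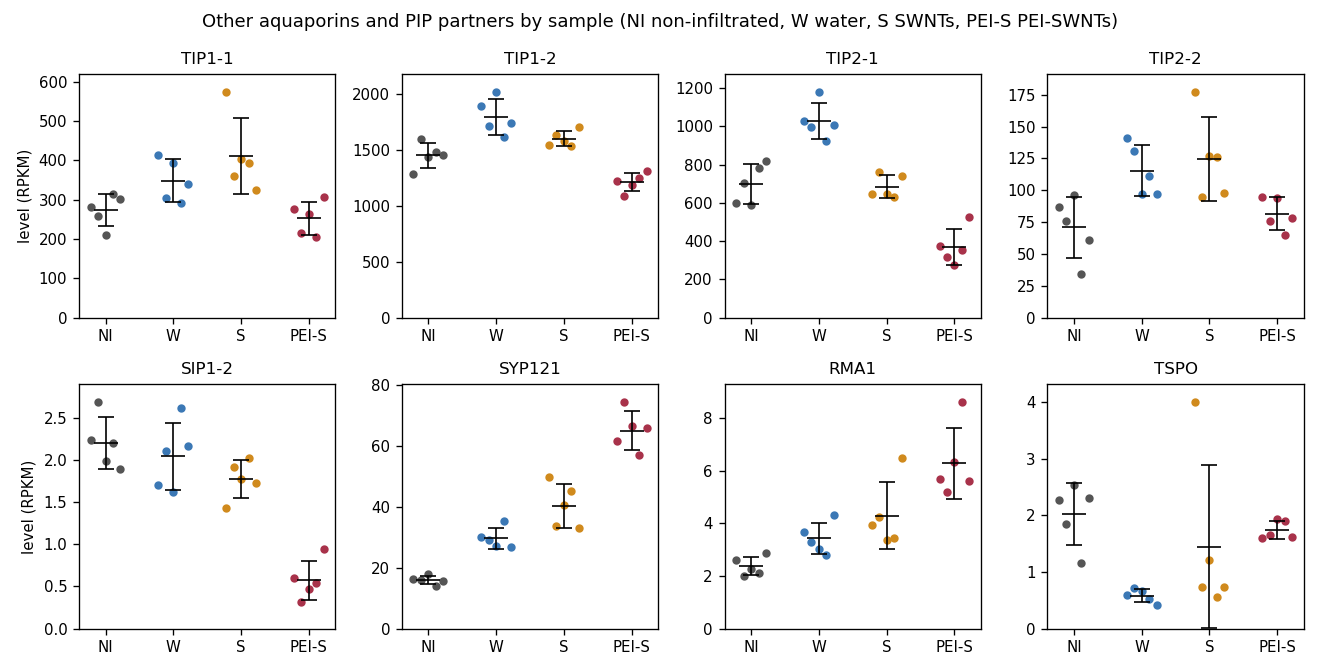
Level (RPKM, y axis from 0) of the 4 tested TIPs, SIP1-2 and 3 genes that act on PIPs in every sample, with bars for the mean ± SD of 5 samples in each group. TIP2-1 and SIP1-2 with PEI-SWNTs lie below every sample of the other groups, while SYP121 rises from 15.9 RPKM in non-infiltrated leaves to 65.0 RPKM with PEI-SWNTs.

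Markers of leaf cell types were checked against the label and in the comparisons. No marker on the 4 lists was at 0 in any sample. The 7 mesophyll markers, which include the small subunit of Rubisco and chlorophyll-binding proteins, summed to 39072 to 58232 RPKM over all samples, and the ranges of the sums overlapped between all groups. Against non-infiltrated leaves, 4 of them were called higher with water, 4 with SWNTs and 3 with PEI-SWNTs, where 16.4%, 21.6% and 30.4% of all tested genes were called higher. The sum mostly reflects CAB1, which made 26980 RPKM of a mean sum of 44403 RPKM in non-infiltrated leaves.

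Some markers of other leaf cells were called lower after every infiltration, also in the groups in which PIPs were called higher. The shares of all tested genes called lower than in non-infiltrated leaves were 16.4% with water, 20.3% with SWNTs and 31.2% with PEI-SWNTs. Of the 6 guard cell markers, 4 were called lower with water, 4 with SWNTs and 5 with PEI-SWNTs, and they summed to 48.9 to 74.1 RPKM in non-infiltrated leaves and 39.1 to 68.7 RPKM with PEI-SWNTs. The most abundant of them, GC1, went the other way in its mean. It averaged 25.6 RPKM in non-infiltrated leaves and 34.8, 35.0 and 31.9 RPKM with water, SWNTs and PEI-SWNTs. Of the 3 epidermis markers, 1 was lower with water, 2 with SWNTs and 3 with PEI-SWNTs. The sum of the epidermis markers was 253 to 302 RPKM in non-infiltrated leaves, 256 to 284 RPKM with water, 256 to 300.4 RPKM with SWNTs and 188 to 206 RPKM with PEI-SWNTs, which overlapped no other group. Most of that sum was FDH, at 234.9 RPKM on average in non-infiltrated leaves and 181.3 RPKM with PEI-SWNTs. PDF1, of the same list, averaged 7.45 RPKM in non-infiltrated leaves and 0.338 RPKM with water, while the mean sums were 268.6 and 269.5 RPKM. The PDF1 samples ranged from 0.829 to 12.4 RPKM in non-infiltrated leaves and from 0.14 to 0.831 RPKM with water. These ranges overlap, and the water samples held 4 to 20 counts. Of the 5 vascular and bundle sheath markers 2 were lower with each of the 3 treatments, and they summed to 194 to 345 RPKM in non-infiltrated leaves and 161 to 219 RPKM with PEI-SWNTs. In non-infiltrated leaves SWEET11 made 151.4 RPKM of their mean sum of 286.1 RPKM. With PEI-SWNTs against water, where 24.3% of all genes were called lower, 2 markers of each of the 4 lists were. In the same comparison 27.7% of all genes were called higher. Of the 5 vascular and bundle sheath markers 1 was called higher there, and no marker of the other lists was. The part of these shifts in the PIP levels was not tested.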

How the data were processed

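RNA-seq counts of 20 leaf samples were analysed, with group and replicate number (5 in each of 4 groups) taken from the sample labels. The authors trimmed reads with Trimmomatic, mapped them with HISAT2 to TAIR10 and made the deposited counts per gene with featureCounts (2.0.1 per the submitters' processing notes, which also name edgeR 3.30.3); other versions, the strand setting and the treatment of multi-mapping reads are not given in the sources used here. The deposited counts are raw and not normalised, and every sample column was used. A second table of the authors holds gene length (other, in base pairs) and columns of their own comparisons, with log2 fold changes, an average log2 CPM, a score (the F statistic) and a p-value and adjusted p-value. Of these only the deposited lengths were used, and the authors' comparisons were not. Lengths were summed over the merged exons of each gene in TAIR10.1, which equals 16064 of the 16068 deposited lengths that could be compared, and for 139 tested genes from the deposited table. 146 genes had no length.

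Genes with an average RPKM below 1 were removed, leaving 16288 of 37336. Counts were scaled by TMM and tested in edgeR 4.0.16 (R 4.3.3) with glmQLFit (legacy=TRUE) and glmQLFTest on group alone over all 20 samples, 1 contrast for each of 6 pairs of groups, two-sided, with Benjamini-Hochberg adjustment over all genes tested. The SE is the log2 fold change divided by the square root of F. The steps were tested on simulated counts. The alternatives were other scalings, filters and dispersion settings, DESeq2 1.42.0, fits on the samples compared only, fold thresholds, a GC and length offset, a replicate block and each sample left out in turn. Named genes were all 10 members, the other 3 PIP genes, and in each further list the called genes that also changed 2-fold in any comparison, at most 3 a list. NIP6-1, NIP1-2, SYP61, and the kinases, ubiquitin enzymes, PIP2-5 and single markers outside that rule were named after their values were seen. The members and lists were chosen with earlier results of these data known. Replicate numbers were not used to pair the samples across groups in the main fit. The deviations of same-numbered samples from their group means correlated at -0.36 to 0.29 (30 pairs of samples, 9 over 0.1). Those of differently numbered samples correlated at -0.49 to 0.46 (120 pairs, 37 over 0.1).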

Additional observations from a re-analysis of the deposited data

Results flagged for a closer look

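In 3 of the 40 sets of 5 samples (10 members in 4 groups) 1 sample lay far from the other 4 by Dixon's test, where chance gives about 2. PIP2-2 was at 379.5 RPKM in SWNTs replicate 1, against 194 to 228.5 RPKM in the other SWNT samples. PIP1-1 was at 393 RPKM in the same sample, against 309 to 330.4 RPKM. PIP1-4 was at 128 RPKM in PEI-SWNTs replicate 5, against 92.8 to 103 RPKM in the other PEI-SWNT samples. Without SWNTs replicate 1, PIP2-2 kept its call against non-infiltrated leaves and lost that against water.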

How the results depend on the processing

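No direction of a called member was reversed by any alternative. The number of called members with water against non-infiltrated leaves was 3, and it was 5 with RLE size factors, 5 with the replicate block and 5 without organelle genes, 6 higher with DESeq2, 6 with filterByExpr and 6 with every gene of at least 1 count (in the latter pair 5 higher and PIP2-8, which those filters keep, lower), 1 at an adjusted p under 0.01, 1 with glmTreat for a 1.2-fold change and 0 with a 2-fold minimum. In the joint test of the 3 treatments, which does not say which one differs, all 9 tested members passed in place of 3 with water and 5 with SWNTs. With SWNTs against non-infiltrated leaves glmTreat gave 2. With SWNTs against water, 1 member was called, and 0 with the 10 samples compared, with glmTreat, at an adjusted p under 0.01 or at 2-fold. A 2-fold minimum gave 0 in every comparison. With 1 sample left out the count ranged from 2 to 6 for water, 5 to 5 for SWNTs and 6 to 8 for PEI-SWNTs against non-infiltrated leaves, 0 to 1 for SWNTs against water, 6 to 6 for PEI-SWNTs against water and 6 to 8 for PEI-SWNTs against SWNTs. The water count was 6 without non-infiltrated replicate 3 and 5 without water replicate 2, SWNTs replicate 1 or PEI-SWNTs replicate 4 or 5. The SWNTs against water count was 0 without SWNTs replicate 1 or water replicate 2, 4 or 5. The fall of PIP1-2 with PEI-SWNTs against SWNTs lost its call in 11 of 16 alternatives. Each of the 6 members that fell with PEI-SWNTs against water lost its call only at the 2-fold minimum among 16 alternatives, and PIP1-5 stayed between -1.02 and -0.97 (log2). The replicate block changed no other count by over 1.5 times, and it added PIP1-1 and PIP2-1 to the members called with water (adjusted p = 0.048 and 0.047). Depth limits PIP2-8, with at most 33 counts in a sample, and the near-identity of PIP2-2 and PIP2-3 limits how far their reads can be told apart.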
